A study of Mus musculus with 19 samples.

Results

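The 38 genes described here mark brain cells that a CD11b sort for microglia is meant to leave behind. They are 9 markers of oligodendrocytes, 9 of astrocytes, 10 of neurons and 10 of endothelial cells, named by symbol among the 56980 genes counted, and all 38 had enough reads to be tested. The libraries came from CD11b+ cells of the brains of 19 male mice aged 3 to 4 months, enriched on magnetic beads without a culture step. The groups were wildtype littermates given PBS (n = 4) or LPS (n = 5) and *Park7*/DJ-1 knockout mice given PBS (n = 5) or LPS (n = 5). Values below are given for mice in replicate order. LPS, a bacterial cell wall component, was injected intraperitoneally at 4 μg/g body weight, PBS stands for the saline vehicle, and all mice were perfused and killed 6 h later. The KO is a gene-trap allele that all cells carry, backcrossed to C57BL/6NCrl, so the allele is not limited to microglia. Olfactory bulb and cerebellum were left out, and the methods give no myelin removal step for this enrichment.

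Oligodendrocytes wrap axons in myelin, and their RNA for myelin proteins such as MBP is carried out into the myelin sheath itself. Astrocytes clear glutamate and potassium around synapses, neurons carry the vesicle and cytoskeletal proteins of synapses and axons, and endothelial cells line the vessels and form the blood-brain barrier with tight junctions and transporters. CD11b is an integrin of microglia and other myeloid cells, so none of the 4 cell types is bound by the beads through CD11b of its own.

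Of the 38 genes, the study itself measured 6 by qPCR to check its sort, and 4 of those primer pairs are shown because, for 2 of the cell types, 1 gene of the sort check passed the test after LPS and its partner did not. *Gfap* and *Ntsr2* stand for astrocytes, *Tubb3* and *Rbfox3* (NeuN) for neurons. Placed on GENCODE M39 transcripts (GRCm39), the *Gfap* primers span 194 bp of coding sequence over exons 3 to 4 (minus strand, chr11:102785229-102786355) and the *Ntsr2* primers 149 bp of coding sequence over exons 2 to 3 (plus strand, chr12:16706813-16708455). The *Tubb3* primers span 208 bp of coding sequence over exons 2 to 4 (plus strand, chr8:124144930-124147431), and the *Rbfox3* primers 199 bp of untranslated sequence over exons 2 to 4 (minus strand, chr11:118501013-118702185). No other gene's transcripts held both primers of a pair. Each primer is written 5′ to 3′.
Gfap forward: agaaaggttgaatcgctgga
Gfap reverse: tcttgcatgttactggtggc
Ntsr2 forward: ggtgagacacaaggatgcca
Ntsr2 reverse: cagtccatccatcatcgggg
Tubb3 forward: tgaggcctcctctcacaagta
Tubb3 reverse: ccgcacgacatctaggactg
Rbfox3 forward: acacacacactccatactgagg
Rbfox3 reverse: gctctgggctctctgtttgc

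Total counts per library ranged from 11936364 to 22788884. *Park7*, the targeted gene, lay between 20.6 and 32.1 CPM in the 9 wildtype and between 0.457 and 5.38 CPM in the 10 KO libraries, where CPM is a gene's count scaled to the TMM-normalized library total. For the sorted cells, 13 microglia genes summed to 12235 to 44106 CPM per library, led by the receptor *Csf1r*. In KO LPS mouse 1 they summed to 15208 CPM beside 10559 CPM for the oligodendrocyte and 5347 CPM for the astrocyte markers. Of the latter 2 sums *Mbp* alone gave 8281 and *Slc1a2* 3445 CPM. Sums over different genes do not give shares of cells. Microglia genes themselves moved with treatment, since 11 of 13 fell after LPS in each genotype, *P2ry12*, *Tmem119* and *Csf1r* among them.

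The 4 lists made up a small and very uneven share of the libraries. Oligodendrocyte markers took 0.0485% to 1.06% of all counts, astrocyte markers 0.0389% to 0.535%, endothelial markers 0.00693% to 0.151% and neuron markers 0.00299% to 0.0401%. The highest library held 21.1 times the lowest for oligodendrocyte, 12.1 times for astrocyte, 11.8 times for neuron and 18 times for endothelial markers. Within groups the same mice led: wildtype PBS mouse 2, KO PBS mouse 1 and KO LPS mouse 1 were the highest of their group in all 4 lists, and wildtype LPS mouse 2 in the oligodendrocyte, neuron and endothelial lists. KO LPS mouse 5 was the lowest of all 19 in astrocyte, neuron and endothelial markers, but not in oligodendrocyte markers. In bulk RNA, fewer cells of a type and less RNA per cell cannot be told apart.

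**Figure D1:**
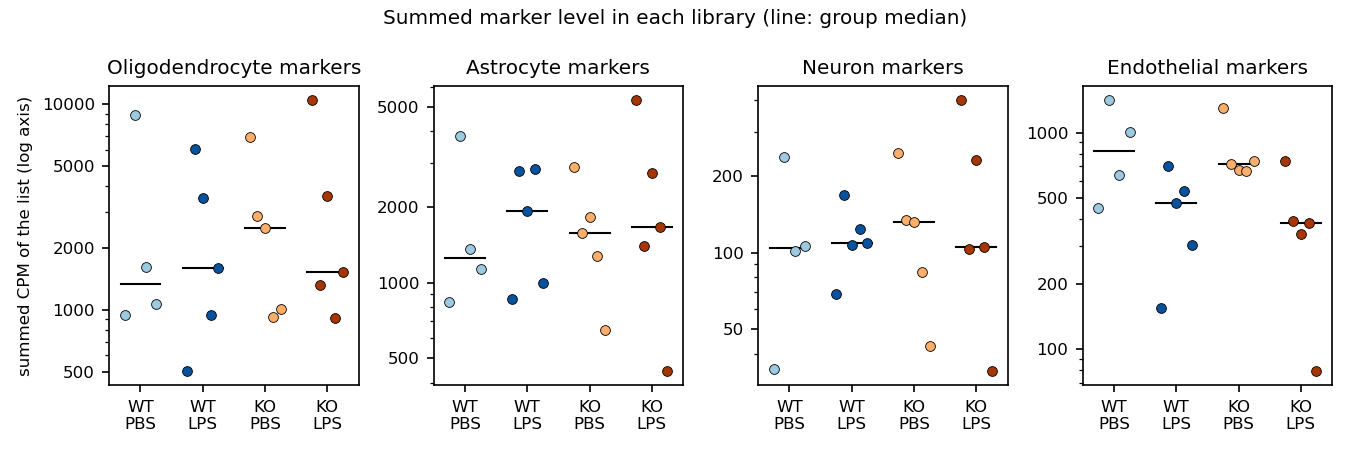
Summed CPM of the 4 marker lists (log axis) in each of the 19 libraries, by genotype and treatment; each point is 1 mouse and the line is the group median. Each group spreads widely, the oligodendrocyte sums from 944 to 8917 in the wildtype PBS mice and from 916 to 10559 in the KO LPS mice.

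After LPS, 9 of the 38 markers passed the test in wildtype mice and 8 in KO mice, at an adjusted p under 0.05 and a log2FC of at least 0.5 in size. In wildtype mice 2 were higher and 7 lower, against 18.4% of all 18739 genes tested higher and 17.4% lower. In KO mice 2 were higher and 6 lower, against 20.1% and 19% of all genes. In either direction 35.9% of all genes passed in wildtype and 39.1% in KO mice, so the 38 as a whole were not called more often than other genes. The median log2FC of the 38 was -0.15 in wildtype and 0.30 in KO mice, beside -0.06 and -0.01 over all genes. The p-values are from edgeR (quasi-likelihood test), adjusted by Benjamini-Hochberg over all genes tested, unless called unadjusted or exact. The calls were uneven between cell types: 0 of 9 oligodendrocyte markers passed, 1 of 9 astrocyte markers (*Gfap*), the neuron markers *Tubb3* in both genotypes and *Stmn2* in wildtype mice, and 6 of 10 endothelial markers.

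**Figure D2:**
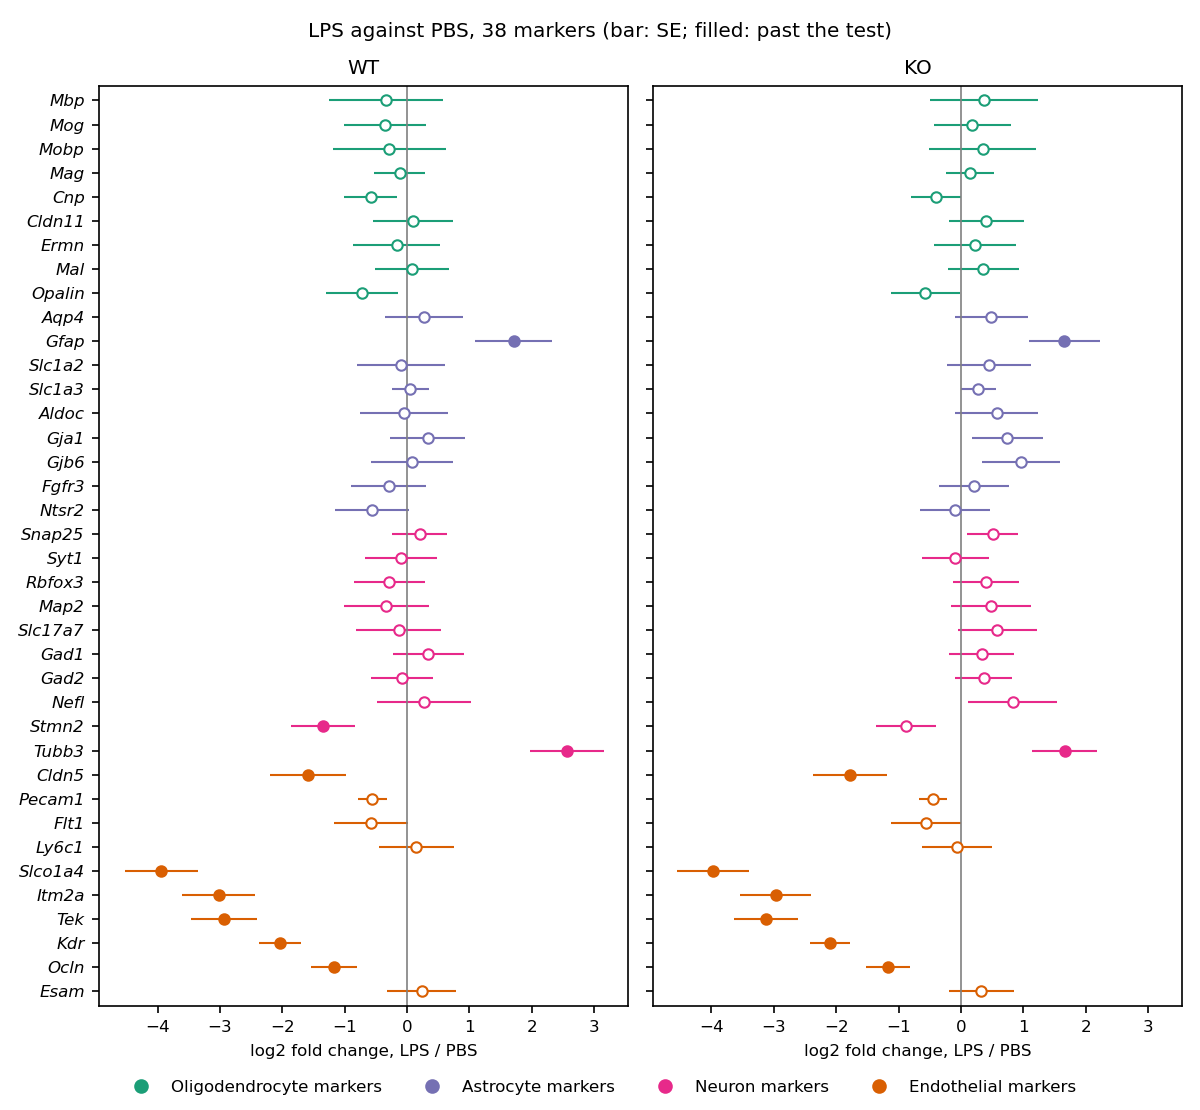
Log2 fold change of LPS against PBS for the 38 markers in wildtype (left) and KO mice (right), with the SE as a bar, coloured by cell type; filled points passed the test. The filled points right of 0 are *Gfap* and *Tubb3*, and the 6 filled endothelial points lie between -3.97 and -1.17 in both panels.

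Oligodendrocyte markers varied from mouse to mouse more than between groups. *Mbp*, the main structural protein gene of compact myelin, had 635, 6732, 1164 and 637 CPM in wildtype PBS, 323, 4509.5, 2542, 531 and 1185 in wildtype LPS, 5202, 2178, 1864, 600.2 and 703 in KO PBS, and 8281, 932, 2698, 560.4 and 1112 in KO LPS mice. *Mobp*, another basic protein gene of myelin, had 119.5, 1428, 229 and 152 CPM in wildtype PBS, 69.2, 970.4, 549, 148 and 247 in wildtype LPS, 1209, 422, 391, 128 and 153 in KO PBS, and 1789, 204, 556, 137 and 243 in KO LPS mice. Within groups the highest mouse had 8.67 to 14.8 times the *Mbp* of the lowest, and the ranges of all 4 groups overlapped for both genes.

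*Mbp* and *Mobp* kept their proportion from mouse to mouse. *Mbp* differed by a factor of 25.6 among the 19 libraries, while the ratio of *Mbp* to *Mobp* stayed between 3.58 and 5.31 in all of them, with medians of 4.89, 4.65, 4.68 and 4.57 in wildtype PBS, wildtype LPS, KO PBS and KO LPS mice. *Mbp* was also the highest member per length, with a mean of 229 CPM per kb of exon, while *Mobp* had 53.6. Not all pairs were as steady, and the ratio of *Mog* to *Mag* ran from 0.0438 to 0.232. *Mog*, a surface protein gene of the outermost myelin and a gene of the study's sort check, had 5.58, 34.1, 8.08 and 9.69 CPM in wildtype PBS, 1.67, 24.3, 14.3, 11.0 and 5.12 in wildtype LPS, 21.9, 6.61, 7.98, 7.12 and 5.13 in KO PBS, and 20.8, 4.52, 15, 8.84 and 6.06 in KO LPS mice, with the high values again in wildtype PBS mouse 2, wildtype LPS mouse 2, KO PBS mouse 1 and KO LPS mouse 1.

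None of the 9 oligodendrocyte markers passed the test after LPS. The estimate for *Mbp* was a log2FC of -0.33 (SE 0.92, adjusted p = 0.809) in wildtype and 0.36 (SE 0.87, adjusted p = 0.772) in KO mice, so that a change of 1 on the log2 scale is close to the SE for this gene. *Mobp* had -0.28 (SE 0.91, adjusted p = 0.839) and 0.35 (SE 0.86, adjusted p = 0.781), and *Mog* -0.35 (SE 0.66, adjusted p = 0.716) and 0.18 (SE 0.62, adjusted p = 0.844). The median log2FC of the 9 was -0.28 in wildtype and 0.22 in KO mice, beside the medians over all genes given above. Smaller SEs, of 0.39 to 0.42, were found for *Mag*, which encodes an adhesion protein of the inner myelin layer, with log2FC of -0.11 and 0.14, and *Cnp*, a myelin phosphodiesterase, with -0.58 and -0.40. The tight junction gene of myelin *Cldn11* had log2FC of 0.10 and 0.41, the cytoskeletal gene *Ermn* -0.17 and 0.22, the myelin lipid raft gene *Mal* 0.08 and 0.36, and *Opalin*, a surface protein gene of myelinating cells, -0.72 and -0.57. No unadjusted p was under 0.05 for any of them, and DESeq2 called 0 of 9 in either genotype as well. Leaving out single mice turned the sign of the list's median in both genotypes: it ran from -0.81 without LPS mouse 2 to 0.85 without PBS mouse 2 in wildtype mice, and from -0.15 without LPS mouse 1 to 0.73 without PBS mouse 1 in KO mice.

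Astrocyte markers gave 1 gene past the test. *Gfap* (ENSMUSG00000020932, GRCm39 chromosome 11, 102778159 to 102791738, minus strand) encodes the intermediate filament protein that reactive astrocytes make in excess. It had 19.1, 102, 34.9 and 46.1 CPM in wildtype PBS, 58.3, 213, 128, 345 and 83.7 in wildtype LPS, 68.7, 52.5, 45.6, 61.0 and 21.8 in KO PBS, and 301, 106, 165, 187 and 25.1 in KO LPS mice. The LPS values were higher on the whole but did not separate: 3 of 5 wildtype and 4 of 5 KO mice lay above the highest PBS mouse of their genotype, and KO LPS mouse 5 lay below 4 of the 5 KO PBS mice. The log2FC was 1.71 (SE 0.62, adjusted p = 0.0323) in wildtype and 1.65 (SE 0.57, adjusted p = 0.0229) in KO mice, and the exact two-sided permutation p was 0.0476 (n = 5 and 4) and 0.0873 (n = 5 and 5), where 0.00794 is the smallest such a test can give. The call was lost in both genotypes when certain single mice were left out, with an adjusted p of up to 0.110 in wildtype and 0.0707 in KO mice (in wildtype without PBS mouse 1, 3 or 4 or LPS mouse 2 or 4, in KO without PBS mouse 5 or LPS mouse 1).

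*Gfap* was also set against another astrocyte gene of the same library. *Slc1a2*, the main glutamate transporter of astrocytes, had 412, 2326, 782 and 577 CPM in wildtype PBS, 372, 1486, 997, 1480.2 and 451 in wildtype LPS, 1866, 912, 1104, 673 and 307 in KO PBS, and 3445, 689, 1582, 822 and 120.1 in KO LPS mice. Its log2FC was -0.10 (SE 0.71, adjusted p = 0.931) in wildtype and 0.45 (SE 0.67, adjusted p = 0.623) in KO mice. The ratio of *Gfap* to *Slc1a2* was 0.0440 to 0.0799 in wildtype PBS, 0.128 to 0.233 in wildtype LPS, 0.0368 to 0.0906 in KO PBS and 0.0875 to 0.227 in KO LPS mice. The wildtype LPS and PBS mice did not overlap in this ratio, and in KO mice 1 LPS mouse (mouse 1) lay below the highest PBS mouse. Against the mean of the other astrocyte markers (log2 of CPM plus 0.1, each marker minus that mean), *Gfap* was higher after LPS without overlap. It ran from -1.02 to -0.51 after PBS and 0.43 to 1.43 after LPS in wildtype mice, and from -0.86 to -0.15 and 0.29 to 1.28 in KO mice. *Ntsr2* and *Fgfr3* were lower on this scale without overlap in KO mice and overlapped in wildtype mice. Over the same libraries the ratio of *Slc1a2* to *Aldoc*, the brain form of aldolase that is high in astrocytes, stayed between 8 and 12.9, although *Slc1a2* itself differed by a factor of 28.7.

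**Figure D3:**
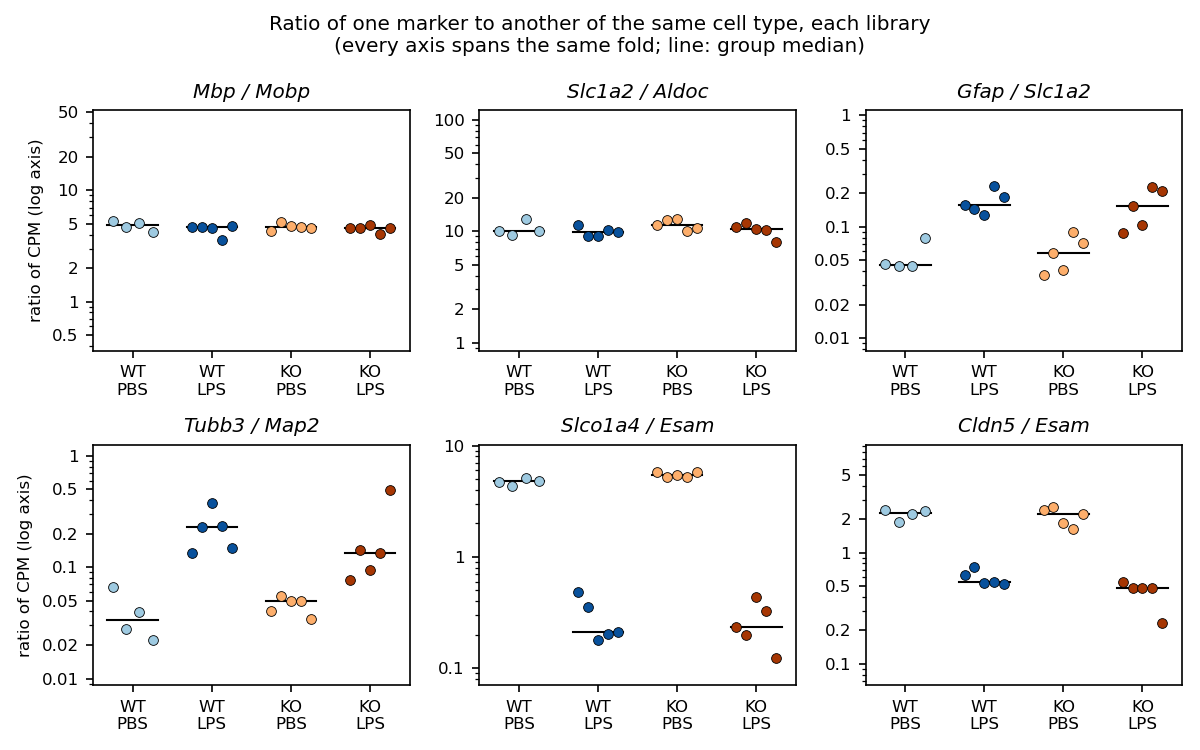
Ratio of the CPM of 1 marker to another of the same cell type in each library (log axes that span the same fold), by group, with the median as a line. *Mbp* to *Mobp* and *Slc1a2* to *Aldoc* stay level across the 4 groups, whereas *Gfap* and *Tubb3* rise and *Slco1a4* and *Cldn5* fall with LPS against their partner, here *Esam*, the endothelial marker with the highest LPS estimate; against the mean of the other 9 endothelial markers *Slco1a4* also falls, whereas the LPS and PBS ranges of *Cldn5* overlap.

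The other astrocyte markers did not pass the test. *Slc1a3*, the other glutamate transporter of astrocytes, had 255, 565, 303 and 261 CPM in wildtype PBS, 289.6, 446, 383, 425 and 253 in wildtype LPS, 427, 327, 349, 271 and 183 in KO PBS, and 619, 327, 407, 304 and 233 in KO LPS mice. It varied least of the list, by a factor of 3.39, and had a log2FC of 0.05 (SE 0.29, adjusted p = 0.905) in wildtype and 0.28 (SE 0.28, adjusted p = 0.442) in KO mice. *Ntsr2*, a neurotensin receptor gene and the partner of *Gfap* in the sort check, had 8.13, 56.6, 18.3 and 19.7 CPM in wildtype PBS, 9.42, 26.6, 15.5, 24.1 and 11.2 in wildtype LPS, 29.8, 16.2, 21.5, 17.4 and 14.3 in KO PBS, and 39.7, 10.8, 27.9, 12.2 and 2.02 in KO LPS mice. Its log2FC was -0.56 (SE 0.59, adjusted p = 0.491) in wildtype and -0.10 (SE 0.56, adjusted p = 0.910) in KO mice, the lowest estimate of the 9 in each genotype and not past the test in either. *Aqp4*, the water channel of astrocyte endfeet, had log2FC of 0.27 and 0.49 in wildtype and KO mice, *Aldoc* -0.04 and 0.58, and the growth factor receptor gene *Fgfr3* -0.29 and 0.21. The gap junction genes *Gja1* and *Gjb6* had 0.33 and 0.74, and 0.08 and 0.96. The median of the 9 was 0.05 in wildtype and 0.49 in KO mice, and leaving out single mice moved it between -0.20 (without PBS mouse 1) and 0.89 (without PBS mouse 2) in wildtype and between 0.05 (without LPS mouse 1) and 0.83 (without PBS mouse 1) in KO mice. Without KO LPS mouse 5, *Gjb6* also passed in KO mice, with an adjusted p of 0.0494 (0.0494 to 0.559 over all alternatives).

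Neuron markers were the lowest of the 4 lists, and 2 of 10 passed the test in at least 1 genotype. *Tubb3* (ENSMUSG00000062380, GRCm39 chromosome 8, 124138163 to 124150092, plus strand), the gene of a tubulin used as a neuron marker, rose after LPS in both genotypes. It had 1.04, 3.58, 1.51 and 0.993 CPM in wildtype PBS, 3.22, 17.6, 15.4, 11.0 and 5.46 in wildtype LPS, 5.22, 2.82, 2.64, 1.89 and 0.810 in KO PBS, and 15.6, 5.20, 10.6, 6.71 and 4.19 in KO LPS mice, which rests on 15 to 277 counts per library. In wildtype mice 4 of 5 and in KO mice 3 of 5 LPS values lay above the highest PBS value. The log2FC was 2.56 (SE 0.60, adjusted p = 0.00177) in wildtype and 1.66 (SE 0.53, adjusted p = 0.0143) in KO mice, with an exact permutation p of 0.0238 in each (n = 5 and 4, n = 5 and 5). The interaction of genotype and LPS was -0.90 (SE 0.77, unadjusted p = 0.254), so a difference in response between genotypes was not shown. The call held under all 28 alternatives in each genotype.

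The most abundant neuron genes, *Map2* and *Syt1*, did not pass the test. *Map2*, a microtubule protein gene of dendrites, had 15.7, 129, 38.4 and 44.3 CPM in wildtype PBS, 24.3, 76.5, 41.1, 47.1 and 36.7 in wildtype LPS, 129, 51.2, 52.7, 38.1 and 23.8 in KO PBS, and 204, 36.6, 113, 50.0 and 8.52 in KO LPS mice. Its log2FC was -0.33 (SE 0.68, adjusted p = 0.743) in wildtype and 0.49 (SE 0.64, adjusted p = 0.578) in KO mice. The ratio of *Tubb3* to *Map2* was 0.0224 to 0.0664 in wildtype PBS, 0.133 to 0.375 in wildtype LPS, 0.0340 to 0.0550 in KO PBS and 0.0763 to 0.492 in KO LPS mice, with no overlap between LPS and PBS mice in either genotype. *Syt1*, the calcium sensor of synaptic vesicles, had 2.50, 20.7, 18.3 and 17.4 CPM in wildtype PBS, 8.83, 13.0, 9.39, 16.6 and 21.1 in wildtype LPS, 23.4, 23.7, 23.1, 13.2 and 4.38 in KO PBS, and 30.7, 16.6, 21.4, 10.3 and 3.39 in KO LPS mice. Its log2FC was -0.10 (SE 0.58, adjusted p = 0.916) in wildtype and -0.09 (SE 0.54, adjusted p = 0.915) in KO mice, and the groups overlapped.

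*Rbfox3*, the gene of the nuclear antigen NeuN and the partner of *Tubb3* in the sort check, stayed low. It had 0.938, 6.55, 3.94 and 4.22 CPM in wildtype PBS, 2.27, 5.00, 2.65, 2.60 and 3.58 in wildtype LPS, 7.61, 3.46, 4.42, 2.10 and 1.57 in KO PBS, and 12.5, 2.63, 5.32, 3.13 and 1.66 in KO LPS mice. The log2FC was -0.28 (SE 0.57, adjusted p = 0.741) in wildtype and 0.40 (SE 0.54, adjusted p = 0.580) in KO mice, and the groups overlapped. *Stmn2*, a stathmin gene of growing axons (ENSMUSG00000027500, GRCm39 chromosome 3, 8574151 to 8626667, plus strand), went the other way from *Tubb3*. It had 1.20, 8.30, 4.27 and 5.40 CPM in wildtype PBS, 1.07, 2.17, 1.81, 2.54 and 1.79 in wildtype LPS, 7.06, 5.22, 4.37, 2.83 and 2.54 in KO PBS, and 5.34, 1.71, 2.81, 1.01 and 1.08 in KO LPS mice. The log2FC was -1.35 (SE 0.51, adjusted p = 0.0414) in wildtype mice, where it passed the test, and -0.87 (SE 0.48, adjusted p = 0.152) in KO mice, where it did not. The interaction was 0.48 (SE 0.70, unadjusted p = 0.505), so a difference between genotypes was not shown. The CPM ranges overlapped, with an exact permutation p of 0.0952 in each genotype, and the wildtype call was lost under 11 of 28 alternatives, 8 of them a single mouse left out, while the KO value passed without KO LPS mouse 1 (adjusted p = 0.0220, range over all alternatives 0.0220 to 0.328) and without the mouse highest in oligodendrocyte markers in each group (adjusted p = 0.046), where the wildtype value did not (adjusted p = 0.121). Against the mean of the other neuron markers (log2 of CPM plus 0.1, each marker minus that mean), *Stmn2* was lower after LPS without overlap. It ran from -0.82 to -0.24 after PBS and from -2.35 to -1.82 after LPS in wildtype mice. In KO mice it ran from -1.05 to 0.22 and from -2.82 to -1.29. *Tubb3* was higher on this scale without overlap in both genotypes. The mean used for each of these genes holds the other.

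The remaining neuron markers did not pass the test. The SNARE gene *Snap25* had log2FC of 0.20 in wildtype and 0.51 in KO mice, and *Slc17a7*, the vesicular glutamate transporter of excitatory neurons, -0.13 and 0.58. *Gad1* and *Gad2*, which make GABA in inhibitory neurons, had 0.35 and 0.33, and -0.07 and 0.37. The neurofilament gene *Nefl* had 0.28 and 0.83. The median of the 10 was -0.09 in wildtype and 0.45 in KO mice, and leaving out single mice moved it between -0.38 and 0.44 in wildtype and between -0.01 and 0.78 in KO mice.

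Most endothelial markers fell after LPS in both genotypes. Of the 10, 6 passed the test in each genotype and were lower in both: *Slco1a4*, *Itm2a*, *Tek*, *Kdr*, *Cldn5* and *Ocln*. The median log2FC of the list was -1.37 in wildtype and -1.48 in KO mice, and stayed between -1.59 and -1.11 and between -1.84 and -1.23 with single mice left out. For 4 of these markers in wildtype (*Slco1a4*, *Itm2a*, *Tek*, *Kdr*) and all 6 in KO mice every LPS value lay below every PBS value, a pattern shown by 17.0% of all genes in wildtype and 16.6% in KO mice.

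*Slco1a4* (ENSMUSG00000030237, GRCm39 chromosome 6, 141751165 to 141802036, minus strand), an organic anion transporter of the blood-brain barrier, had the lowest estimate of the 10 in both genotypes. It had 74.9, 240.2, 118 and 181 CPM in wildtype PBS, 4.47, 20.1, 6.99, 12.2 and 6.14 in wildtype LPS, 248, 127, 129.9, 130.1 and 143 in KO PBS, and 17.5, 6.86, 12.4, 11.8 and 0.577 in KO LPS mice, the lowest from 8 counts in KO LPS mouse 5. The lowest PBS value of 74.9 CPM lay above the highest LPS value of 20.1 CPM. The log2FC was -3.94 (SE 0.59, adjusted p = 2.18e-05) in wildtype and -3.97 (SE 0.57, adjusted p = 1.27e-05) in KO mice, a level 15.3 and 15.7 times lower, and the exact permutation p was 0.00794 in each, the smallest these groups allow (n = 5 and 4, n = 5 and 5).

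*Itm2a* (ENSMUSG00000031239, GRCm39 chromosome X, 106418945 to 106447419, minus strand), a membrane protein gene high in brain endothelium, had 23.7, 73.5, 33.8 and 62.0 CPM in wildtype PBS, 1.13, 8.81, 4.64, 9.49 and 5.71 in wildtype LPS, 78.4, 42.1, 34.9, 33.9 and 38.8 in KO PBS, and 8.66, 3.49, 9.03, 7.27 and 0.505 in KO LPS mice. Its log2FC was -3.02 (SE 0.59, adjusted p = 0.000355) in wildtype and -2.97 (SE 0.57, adjusted p = 0.000262) in KO mice. *Tek*, the angiopoietin receptor TIE2 (ENSMUSG00000006386, GRCm39 chromosome 4, 94627291 to 94763224, plus strand), had 21.6, 66.6, 32.6 and 49.1 CPM in wildtype PBS, 1.37, 11.0, 5.90, 6.37 and 2.98 in wildtype LPS, 59.0, 35.5, 30.1, 30.9 and 42.8 in KO PBS, and 8.32, 4.46, 5.74, 3.24 and 0.794 in KO LPS mice. Its log2FC was -2.93 (SE 0.53, adjusted p = 0.000173) in wildtype and -3.13 (SE 0.52, adjusted p = 6.17e-05) in KO mice. As for *Slco1a4*, the LPS and PBS mice of each genotype shared no part of their range. *Kdr*, the main receptor for the growth factor VEGF (ENSMUSG00000062960, GRCm39 chromosome 5, 76093487 to 76139884, minus strand), had 34.4, 78.4, 39.7 and 51.8 CPM in wildtype PBS, 9.24, 17.1, 12.9, 13.8 and 9.12 in wildtype LPS, 83.3, 43.5, 47.2, 46.5 and 43.4 in KO PBS, and 20.5, 9.03, 16.7, 9.96 and 5.56 in KO LPS mice. Its log2FC was -2.03 (SE 0.33, adjusted p = 6.21e-05) in wildtype and -2.09 (SE 0.32, adjusted p = 2.59e-05) in KO mice. The 4 genes kept their call under every alternative in which they were tested, with each mouse left out in turn included.

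The tight junction genes *Cldn5* and *Ocln* were also lower in both genotypes. *Cldn5*, the claudin of the blood-brain barrier (ENSMUSG00000041378, GRCm39 chromosome 16, 18595597 to 18597012, plus strand), had 38, 104, 50.8 and 87.9 CPM in wildtype PBS, 5.90, 42.0, 20.9, 33.3 and 15.1 in wildtype LPS, 105, 62.5, 43.8, 40.8 and 54.7 in KO PBS, and 40.0, 16.6, 13.6, 17.5 and 1.08 in KO LPS mice. Its log2FC was -1.58 (SE 0.61, adjusted p = 0.0445) in wildtype and -1.78 (SE 0.59, adjusted p = 0.0184) in KO mice, with 4 of 5 wildtype and 5 of 5 KO LPS mice below the lowest PBS mouse. *Ocln*, occludin (ENSMUSG00000021638, GRCm39 chromosome 13, 100630334 to 100689535, minus strand), had 22, 61.0, 28.1 and 54.4 CPM in wildtype PBS, 8.23, 26.3, 17.1, 24.8 and 15.5 in wildtype LPS, 50.2, 33.7, 35.7, 43.9 and 51.0 in KO PBS, and 29.6, 13.6, 18.2, 25.9 and 7.87 in KO LPS mice. Its log2FC was -1.17 (SE 0.37, adjusted p = 0.0158) in wildtype and -1.17 (SE 0.35, adjusted p = 0.0106) in KO mice, with 3 of 5 and 5 of 5 LPS mice below the lowest PBS mouse. The wildtype call of *Cldn5* was lost under 13 of 28 alternatives (adjusted p up to 0.131), and that of *Ocln* without wildtype PBS mouse 2 or 4 (up to 0.0800). In KO mice the call of *Cldn5* was lost without KO PBS mouse 1 (0.0537).

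**Figure D4:**
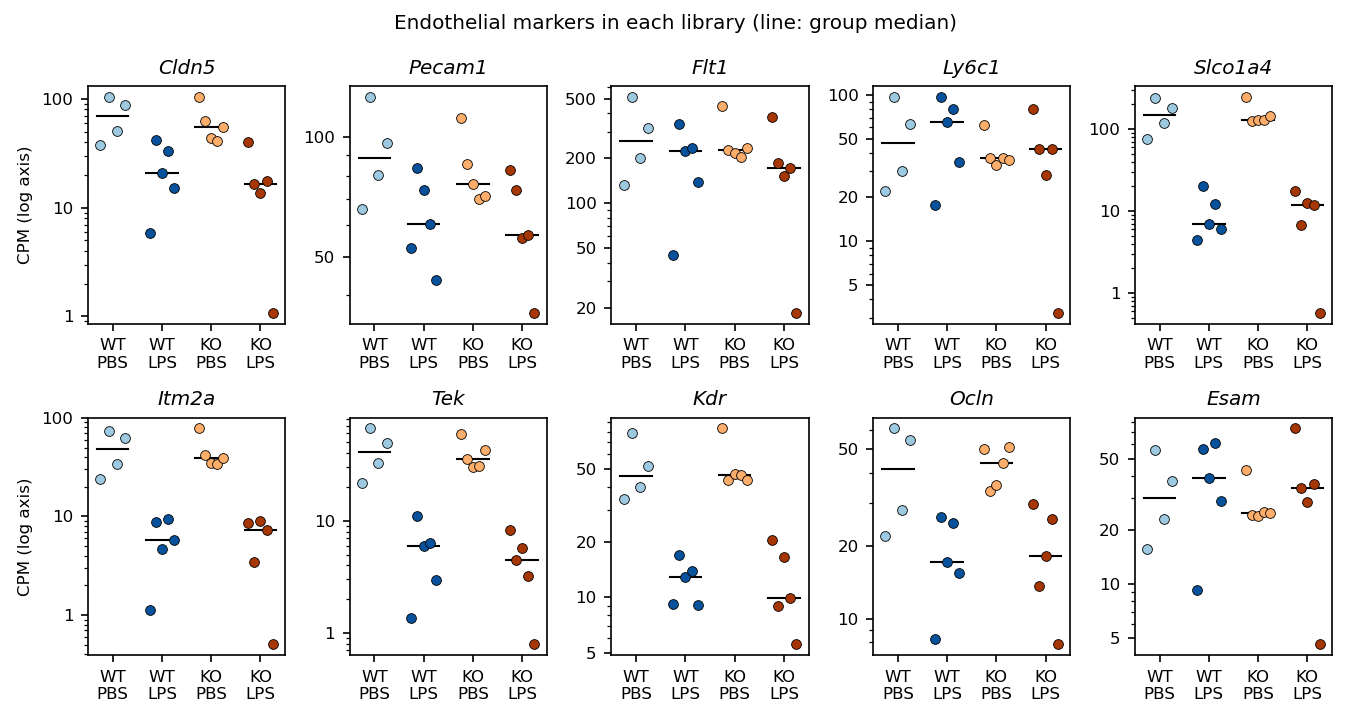
CPM of the 10 endothelial markers in each library (log axes), by genotype and treatment; each point is 1 mouse and the line is the group median. *Slco1a4* falls from 74.9 to 248 CPM after PBS to 0.577 to 20.1 CPM after LPS, while the LPS and PBS ranges of *Esam* and *Ly6c1* overlap, and KO LPS mouse 5 is the lowest point of all 10 panels.

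The 4 endothelial markers that did not pass the test were *Flt1*, *Pecam1*, *Esam* and *Ly6c1*. *Flt1*, the decoy VEGF receptor, had 132, 517, 202 and 319 CPM in wildtype PBS, 45.0, 340.0, 224, 235 and 139 in wildtype LPS, 452, 226, 218, 205 and 235 in KO PBS, and 379, 185, 153, 172 and 18.5 in KO LPS mice. Its log2FC was -0.57 (SE 0.59, adjusted p = 0.481) in wildtype and -0.56 (SE 0.56, adjusted p = 0.450) in KO mice, and the groups overlapped. *Pecam1*, an adhesion gene of endothelial and also of blood cells, had -0.56 (SE 0.23, adjusted p = 0.0657) and -0.44 (SE 0.22, adjusted p = 0.115), and its wildtype value passed under 6 of 28 alternatives (adjusted p 0.0333 to 0.298). *Esam*, a junctional adhesion gene, had 0.24 (SE 0.55, adjusted p = 0.772) and 0.33 (SE 0.52, adjusted p = 0.649).

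*Ly6c1*, a surface antigen gene of brain capillaries, had a log2FC of 0.15 (SE 0.60, adjusted p = 0.868) in wildtype and -0.06 (SE 0.56, adjusted p = 0.946) in KO mice. It is uncertain, since 26.8% of the 75 base windows of its transcripts also occur in transcripts of other genes, chiefly *Ly6c2*, against at most 1.40% for any other of the 38. *Ly6c2*, the Ly6C gene of inflammatory monocytes, rose by a log2FC of 5.26 in wildtype and 4.91 in KO mice (adjusted p = 5.73e-06 and 2.90e-06), from 0.152 to 3.25 CPM after PBS to 18.3 to 70.8 CPM after LPS. How the counting treated reads that match both genes is not given in the sources used here.

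Ratios to *Esam*, taken as a reference within the endothelial list after its values were seen, are given as a description. *Esam* had the highest LPS estimate of the 10 endothelial markers in both genotypes, so each ratio is taken against the highest estimate of the list, and for some members another reference gives another order, as shown after these values. The ratio of *Slco1a4* to *Esam* was 4.31 to 5.10 in wildtype PBS, 0.178 to 0.481 in wildtype LPS, 5.17 to 5.78 in KO PBS and 0.125 to 0.437 in KO LPS mice. The PBS ratios of all 9 mice thus lay within 4.31 to 5.78, although *Slco1a4* itself differed by a factor of 3.21 among the wildtype PBS mice. The ratio of *Tek* to *Esam* ranged from 1.19 to 1.73 after PBS and from 0.0898 to 0.202 after LPS, and that of *Cldn5* to *Esam* from 1.62 to 2.58 and from 0.234 to 0.746. The ratios of *Itm2a* and *Kdr* to *Esam* were also apart in both genotypes, at 1.32 to 1.82 and 1.38 to 2.19 after PBS and 0.102 to 0.317 and 0.228 to 1.20 after LPS. *Flt1* to *Esam* was 8.16 to 10.5 after PBS and 3.88 to 6.03 after LPS. *Ocln* to *Esam* was apart in wildtype mice (1.09 to 1.45 after PBS, 0.409 to 0.885 after LPS) but overlapped in KO mice (1.16 to 2.06 and 0.398 to 1.70). *Ly6c1* to *Esam* overlapped in wildtype mice (1.32 to 1.74 after PBS, 1.21 to 1.89 after LPS) but not in KO mice (1.39 to 1.53 and 0.703 to 1.24). *Pecam1* to *Esam* overlapped in both, at 2.27 to 4.20 after PBS and 0.999 to 5.66 after LPS in wildtype mice and 2.60 to 3.53 and 1.12 to 7.83 in KO mice, and wildtype LPS mouse 1 and KO LPS mouse 5 lay above every PBS mouse of their genotype.

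With the mean of the other 9 endothelial markers as the reference (log2 of CPM plus 0.1, each marker minus that mean), 3 members were lower after LPS without overlap in either genotype. *Slco1a4* ran from 1.18 to 1.52 after PBS and from -2.59 to -0.85 after LPS, *Itm2a* from -0.69 to -0.33 and from -3.05 to -1.36, and *Tek* from -0.86 to -0.49 and from -2.98 to -1.96. *Cldn5* overlapped in both genotypes, at -0.05 to 0.16 after PBS and -0.52 to 0.17 after LPS in wildtype mice and -0.40 to 0.18 and -1.69 to 0.10 in KO mice. *Kdr* overlapped as well, at -0.68 to -0.06 and -1.26 to 0.19 in wildtype mice and -0.46 to -0.14 and -1.21 to 0.82 in KO mice. The 4 markers that did not pass the test were higher after LPS on this scale without overlap in either genotype: *Flt1* at 2.09 to 2.51 after PBS and 2.72 to 3.70 after LPS, *Pecam1* at 0.24 to 0.98 and 1.12 to 3.79, *Ly6c1* at -0.77 to -0.16 and -0.026 to 1.69, and *Esam* at -1.36 to -1.05 and 0.20 to 1.12. *Ocln* was higher after LPS in wildtype mice (-0.91 to -0.61 after PBS, -0.58 to 0.0074 after LPS) and overlapped in KO mice (-1.04 to -0.20 and -0.48 to 1.36). The direction for *Flt1* in both genotypes, *Ocln* in wildtype and *Ly6c1* in KO mice was thus opposite under the 2 references, and the separation of *Cldn5* and *Kdr* was seen with *Esam* as the reference but not with the rest of the list. This mean itself holds markers that fell, so a higher value on this scale is no rise in CPM.

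The promoters of the 4 endothelial genes with separate ranges in both genotypes are shown because these genes moved together. They are the 250 bases before the RefSeq start (GRCm38.p6, gene strand, 5′ to 3′), and capitals mark AGGAAG or its reverse complement CTTCCT, a form of the site that ETS factors of endothelial cells bind. Other forms of that site were not searched or marked. Slco1a4 is at chr6:141856221-141856470 (minus strand), Itm2a at chrX:107403361-107403610 (minus strand), Tek at chr4:94739039-94739288 (plus strand) and Kdr at chr5:75978456-75978705 (minus strand).
Slco1a4: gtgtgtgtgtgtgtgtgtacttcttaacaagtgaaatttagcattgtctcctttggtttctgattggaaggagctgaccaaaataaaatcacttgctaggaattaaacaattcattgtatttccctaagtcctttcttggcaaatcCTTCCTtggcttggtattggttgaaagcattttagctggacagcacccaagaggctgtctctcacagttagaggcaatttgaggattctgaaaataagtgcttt
Itm2a: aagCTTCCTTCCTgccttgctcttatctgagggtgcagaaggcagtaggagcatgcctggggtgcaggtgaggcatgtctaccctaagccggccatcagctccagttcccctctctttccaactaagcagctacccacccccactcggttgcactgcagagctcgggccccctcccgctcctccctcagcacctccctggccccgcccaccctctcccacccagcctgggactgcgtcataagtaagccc
Tek: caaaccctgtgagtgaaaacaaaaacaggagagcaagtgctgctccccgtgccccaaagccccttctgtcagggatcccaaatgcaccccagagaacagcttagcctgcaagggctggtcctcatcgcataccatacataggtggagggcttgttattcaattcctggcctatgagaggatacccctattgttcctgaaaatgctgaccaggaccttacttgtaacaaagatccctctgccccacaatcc
Kdr: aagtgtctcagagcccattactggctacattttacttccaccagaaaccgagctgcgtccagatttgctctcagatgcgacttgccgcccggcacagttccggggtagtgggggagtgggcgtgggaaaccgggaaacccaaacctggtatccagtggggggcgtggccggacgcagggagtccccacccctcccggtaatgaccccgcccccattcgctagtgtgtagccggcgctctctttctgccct
The letters occur 1 time before *Slco1a4* and 2 times, overlapping, before *Itm2a*, but in neither of the other 2 windows, which may hold other forms of an ETS site. They were found in at least 1 window for 4 of the 8 endothelial markers in the RefSeq table (*Flt1* and *Ly6c1* are the others) and in 29.5% of its 32851 windows of this length. The first count is by gene and the second by window. *Ly6c1* and *Ocln* have 2 windows each, so the 2 shares are not directly comparable. Of the 4 with these letters *Slco1a4* and *Itm2a* passed as lower, and of the 4 without them *Cldn5*, *Tek*, *Kdr* and *Ocln* all did.

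Other genes of the same cell types were counted as well. Of 12 other endothelial genes 8 fell in each genotype, among them *Ptprb*, a phosphatase that acts on TIE2 (log2FC -2.97 and -2.81, adjusted p = 0.000629 and 0.000655), the transcription factor gene *Sox17* (-2.81 and -3.06, 0.000718 and 0.000238), the efflux pump gene *Abcb1a* (-2.19 and -2.33, 0.00493 and 0.00218) and *Vwf*, von Willebrand factor (-1.58 and -1.76, 0.0120 and 0.00408). *Tie1*, *Egfl7*, *Ramp2* and *Sox18* were the other 4. *Slc2a1*, the glucose transporter of the barrier and the highest gene of this list, rose in both (0.92 and 1.20, adjusted p = 0.0168 and 0.00147), and *Cdh5*, VE-cadherin, passed as higher in KO mice (1.28, 0.0369) but not in wildtype mice (1.31, 0.0518). All 5 endothelial activation genes rose in both genotypes. *Vcam1*, an adhesion molecule for leukocytes, went from a mean of 69.5 ± 24.6 (SD, n = 4) to 397 ± 155 CPM (SD, n = 5) in wildtype and from 79.1 ± 15.3 to 390 ± 131 CPM (SD, n = 5 each) in KO mice, and *Sele*, *Selp*, *Lrg1* and *Ackr1* had group means of at most 1.49 CPM after PBS and between 10.8 and 34.3 CPM after LPS.

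Genes of mural cells, which sit on the same vessels, passed the test in 0 of 9 cases in each genotype (0 at an unadjusted p under 0.05, edgeR), and their log2FC had a median of -0.36 in wildtype mice and of -0.38 in KO mice. Their summed level was between 201 and 772 CPM after PBS and between 21.1 and 695 CPM after LPS. The pericyte gene *Rgs5* was the highest of them. Among precursors of oligodendrocytes, 0 of 7 genes passed in wildtype mice (2 at an unadjusted p under 0.05, edgeR), and *Gpr17* (-1.52, adjusted p = 0.0175) and *Bmp4* (-1.90, adjusted p = 0.0127) fell in KO mice. *Cspg4* was the highest of that list.

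Among 10 other oligodendrocyte genes, led by *Tspan2*, 1 passed in wildtype mice, the enzyme gene *Aspa* (-1.20, adjusted p = 0.0309), and 0 in KO mice (0 at an unadjusted p under 0.05, edgeR). Of 10 other astrocyte genes, led by the bicarbonate transporter gene *Slc4a4*, the zinc transporter gene *Slc39a12* fell in wildtype (-0.98, adjusted p = 0.0466) and had -0.87 (0.0567) in KO mice. Among 10 other neuron genes, led by *Camk2a*, the enolase gene *Eno2* rose in both (1.05 and 0.88, adjusted p = 0.0167 and 0.0258). Choroid plexus and ependymal genes, most of it *Ttr*, made up 0.0192% to 1.64% of a library, and 0 of 7 passed (0 at an unadjusted p under 0.05, edgeR). Of 5 erythroid genes 1, *Alas2*, had enough reads, and it did not pass the test. Of 8 neutrophil and monocyte genes, led by *S100a8*, 6 rose in wildtype mice (*S100a8*, *S100a9*, *Cxcr2*, *Ly6c2*, *Ccr2* and *Plac8*) and 7 in KO mice (these and *Retnlg*), their summed level going from 27.3 to 109 CPM after PBS to 135 to 471 CPM after LPS. Their part in the changes of *Gfap*, *Tubb3* and the endothelial markers was not tested.

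No difference between KO and wildtype mice passed the test for any of the 38 markers. After LPS, 0 passed an unadjusted p under 0.05 and a log2FC of 0.5, against 1.31% of all genes (0.544% higher and 0.763% lower in KO), and after PBS 0 against 0.800% (0.224% higher and 0.576% lower). The smallest unadjusted p was 0.196 after LPS (*Map2*, log2FC 0.87, SE 0.65) and 0.323 after PBS (*Tubb3*, 0.58, SE 0.57). No marker had an adjusted p under 0.05, against 0.0107% of all genes after LPS and 0.00534% after PBS, or a call by DESeq2. The KO and wildtype ranges were apart for 0 of the 38 after LPS, against 0.0587% of all genes higher and 0.160% lower in KO, and for 0 after PBS, against 0.427% higher and 0.544% lower. The log2FC ran from -0.58 to 0.87 after LPS and from -0.64 to 0.58 after PBS, with SEs of 0.22 to 0.92, which limit how small a difference could have been detected. The best measured were *Pecam1* (-0.04, SE 0.22 after LPS), *Slc1a3* (0.07, SE 0.28) and *Kdr* (-0.01, SE 0.31). Among the other lists *Selp*, P-selectin, was lower in KO mice after LPS (-1.02, unadjusted p = 0.0378, adjusted p = 1.00), as was the erythroid gene *Alas2* (-3.67, unadjusted p = 0.0169), whose list was highest in wildtype LPS mouse 3 at 44.1 CPM. In the other wildtype LPS mice the erythroid list summed to 0.0596 to 4.21 CPM, which overlapped the 0.144 to 2.14 CPM of the KO LPS mice.

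**Figure D5:**
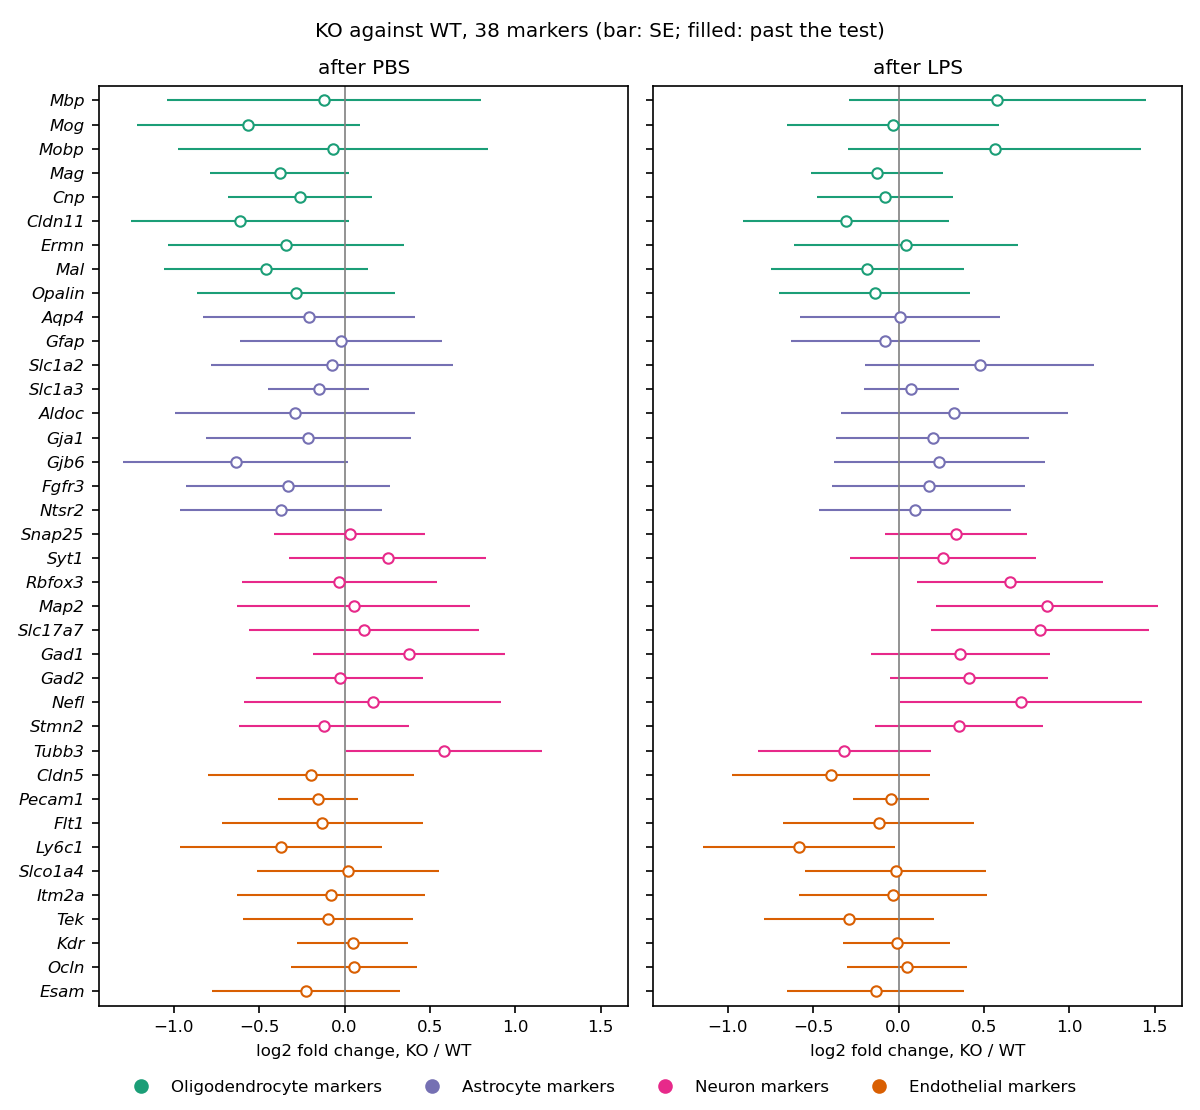
Log2 fold change of KO against wildtype for the 38 markers after PBS (left) and after LPS (right), with the SE as a bar, coloured by cell type. No point is filled, since none passed the test, and the values lie between -0.64 and 0.87.

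By cell type, the median log2FC of KO against wildtype was -0.08 after LPS and -0.34 after PBS for oligodendrocyte, 0.18 and -0.21 for astrocyte, 0.39 and 0.08 for neuron and -0.08 and -0.11 for endothelial markers, beside 0.02 and 0.00 over all genes. Leaving out single mice turned the sign of each of these medians except that of the neuron markers after LPS, which ran from 0.01 to 0.64. After LPS the oligodendrocyte median ran from -0.39 to 0.28, the astrocyte median from -0.35 to 0.46 and the endothelial median from -0.45 to 0.16. After PBS the range was -0.82 to 0.33 for oligodendrocyte, -0.50 to 0.46 for astrocyte, -0.29 to 0.55 for neuron and -0.33 to 0.20 for endothelial markers. No difference in the response to LPS between genotypes passed the test for any of the 38 (0 with an adjusted p under 0.05, 0 at an unadjusted p under 0.05, against 0.961% of all genes at the latter threshold). For *Slco1a4* the interaction was -0.04 (SE 0.75), for *Kdr* -0.06 (SE 0.45) and for *Gfap* -0.06 (SE 0.81).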

How the data were processed

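RNA of CD11b+ cells was sequenced from stranded, ribosome-depleted libraries. The authors trimmed reads (cutadapt 0.17.4 per the labels), aligned them with STAR 2.7.9a to GRCm39 (Ensembl 108) and deposited raw counts per gene. Genes were named through GENCODE M39 (56236 of 56980 IDs). Counts of 18739 genes (filterByExpr, minimum count 10, total 15) were normalized by TMM and fitted over all 19 libraries with edgeR 4.0.16 in R 4.3.3 (quasi-likelihood test, Benjamini-Hochberg adjustment over all genes tested). LPS effects were called at an adjusted p under 0.05, KO against wildtype, after the study, at an unadjusted p under 0.05, both with a log2FC of at least 0.5 in size. Exact two-sided permutation tests used log2 CPM (prior count 2). DESeq2 1.42.0, other scalings and filters, a replicate block and each mouse left out were alternatives. The fit was tested on simulated data: 42.9% of 2-fold and 82.5% of 4-fold changes were found in wildtype LPS against PBS (18739 genes), and 0.0275% of unchanged genes were called.

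The members and lists were chosen with earlier results of these data known. The named genes are the members called, the most abundant 2 of each list and the qPCR genes with their values per mouse, and the other members with their estimates. Not every called gene of the microglia list is reported here by name. Total counts of 11936364 to 22788884 per library set the counting precision. Each library is labelled as its own sample, and no pair agreed within sampling noise (chi-square per degree of freedom of at least 6.50).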

Additional observations from a re-analysis of the deposited data

Results flagged for a closer look

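A single mouse stood apart from its group, by Dixon's 95% critical value, in 27 of 168 groups of values (16.1%). This critical value gives about 1 in 20 for normally distributed values. CPM values need not be so distributed, and all flags were on the high side, so the share cannot be set against that rate. Because the members of a list move together, these are not 27 separate events. Wildtype PBS mouse 2 gave the highest summed oligodendrocyte level of its group (8917 CPM) and stood apart in *Mbp* (6732), *Mog* (34.1), *Mobp* (1428), *Mag* (146.8), *Cnp* (246.4), *Cldn11* (119.5), *Ermn* (58.5), *Slc1a3* (564.6), *Aldoc* (248.9) and *Gja1* (244.7 CPM). KO LPS mouse 1 stood apart in the summed oligodendrocyte level (10559), *Mbp* (8281) and *Mobp* (1789 CPM), and KO LPS mouse 3 in *Opalin* (7.18 CPM).

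KO PBS mouse 1 stood apart in the summed endothelial level (1292), in *Mog* (21.9), *Mobp* (1209), *Cldn11* (66.3), *Mal* (97.2) and *Map2* (128.7), and in *Flt1* (451.6), *Ly6c1* (62.1), *Slco1a4* (247.8), *Itm2a* (78.4), *Kdr* (83.3) and *Esam* (43.1 CPM). All 27 were the highest value of their group, and KO LPS mouse 5, the lowest of all libraries in endothelial markers, was not among them. No interaction of genotype and LPS passed the test for any of the 38 markers (0 with an adjusted p under 0.05 and 0 at an unadjusted p under 0.05, edgeR's quasi-likelihood test).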

How the results depend on the processing

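Of 17 calls of a marker after LPS, 11 held under every alternative (*Slco1a4*, *Itm2a*, *Tek*, *Kdr* and *Tubb3* in both genotypes and *Ocln* in KO mice), and none of the 17 changed sign. Of the 135 estimates of a marker in a comparison between groups that were not called, 104 changed sign under at least 1 alternative. With each mouse left out in turn, 1 to 2 markers were higher and 4 to 8 lower in wildtype mice, the 4 without wildtype PBS mouse 2 or 4, and 1 to 3 were higher and 5 to 7 lower in KO mice. KO against wildtype and the interaction stayed at 0 to 0. An alternative chosen after seeing the data left out the mouse highest in oligodendrocyte markers in each group, and 1 marker was then higher in KO mice, since *Gfap* no longer passed (adjusted p = 0.0588), and 7 were lower, since *Stmn2* now passed (adjusted p = 0.046). In wildtype mice *Stmn2* no longer passed (adjusted p = 0.121), leaving 2 higher and 6 lower; the cause was not tested. With the replicate number as a block, wildtype mice had 2 markers higher and 5 lower, and KO mice 2 and 6. The labels name no pairing of same-numbered mice. Their deviations correlated by -0.04 to 0.58 in the 4 wildtype LPS and PBS pairs and 0.03 to 0.54 in the 5 KO pairs, and 2 of 4 and 3 of 5 mice correlated best with their own number. The sample titles also hold a second number. It was close for the mice highest in oligodendrocyte markers in their group (mouse 2 of both wildtype groups and mouse 1 of both KO groups). What this second number stands for is not given, and its part in the spread was not tested. Precision is limited by the 4 to 5 mice per group and the spread between them, and for low neuron markers by counts, 11 in the lowest library for *Gad1* and *Gad2*.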
